A study of Mus musculus with 8 samples.

Results

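The S100 proteins are a family of small calcium-binding proteins, and 10 of their genes were followed here between a liver-metastatic mouse colon cancer line and its parent: S100a1, S100a3, S100a4, S100a6, S100a8, S100a9, S100a10, S100a11, S100a13 and S100a16. The genes were chosen with earlier results of these data known. Their probes were taken by gene symbol, as the array tables or the platform annotation give it. That rule found 11 of the 41174 probes on the array: 9 genes had 1 probe each and S100a4 had 2. CT26-FL3, labelled as highly metastatic to liver, is a colon cancer line obtained from CT26 by in vivo selection over 3 passages through the liver; its lesions were digested to single cells and cultured for a short time so that stromal cells would be lost. CT26 is the parental line, labelled as poorly metastatic to liver. Both lines carry the labels Balb/c and male, were grown in the same medium with serum, and were measured as total RNA on 4 one-colour arrays each. The labels do not say whether CT26-FL3 is 1 clone or whether the samples were separate cultures, so the spread behind the p-values may be technical.

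Each S100 protein carries a pair of EF-hands, the helix-loop-helix motif that binds calcium, and most S100 proteins work as dimers that bind a target once calcium is bound. Inside the cell the targets include annexins, myosin and other cytoskeletal proteins, while S100A8, S100A9 and S100A4 are also released and act on cell surface receptors such as the receptor for advanced glycation end products and Toll-like receptor 4. Most S100 genes lie next to each other on mouse chromosome 3, in 2 blocks that flank the genes of the epidermal differentiation complex. Several members are commonly studied in metastasis and in colon tumours, S100A4 the most.

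Across probes, which are not independent replicates, 2 arrays of 1 line had a correlation r of 0.997 to 0.998, and 2 arrays of different lines 0.987 to 0.988. Of the 41174 probes, 52.8 to 58.2% per array were above the detection limit, which was set from the array's negative control spots. The lines differed widely: 11131 of the 23068 probes tested passed an adjusted p of 0.05 in limma, which is 48.3%, with 22.9% higher and 25.4% lower in CT26-FL3. As markers of colon epithelium, Krt8, Krt18 and Cdx2 were above the limit on all 8 arrays, whereas Epcam and Cdh1, which define epithelial cells, stayed under it on all 8.

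Of the 10 S100 probes that could be tested, 8 fell in CT26-FL3, 0 rose in limma (also 0 at an unadjusted p under 0.05) and 2 did not pass the threshold, beside a share of 25.4% lower over all probes tested. Counted as genes, 7 of the 9 tested fell, against 25.0% of all genes (48.8% passed in either direction and 23.8% rose), and S100a4 and S100a6 did not pass. The 10 genes were chosen with earlier results known, so these counts describe the chosen genes and not the whole family. Outside the 10, S100a5 and S100b rose by 0.56 and 0.37, S100a7a fell by 1.84 and S100a14 did not pass. S100a9 was too dim to be tested. A fall of at least 2-fold was found for 3 of the 10 probes, against 2.20% of all probes, where 4.80% moved that far in either direction and 2.61% rose that far. The median difference over the 10 probes was -0.65 on the log2 scale, CT26-FL3 minus CT26, against -0.02 over all probes, and the lines did not overlap for 7 of the 10, against 46.0% of all probes. All 10 tested probes were above the limit on all 8 arrays. In these bulk samples, fewer cells that express a gene and less RNA per cell cannot be told apart.

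**Figure D1:**
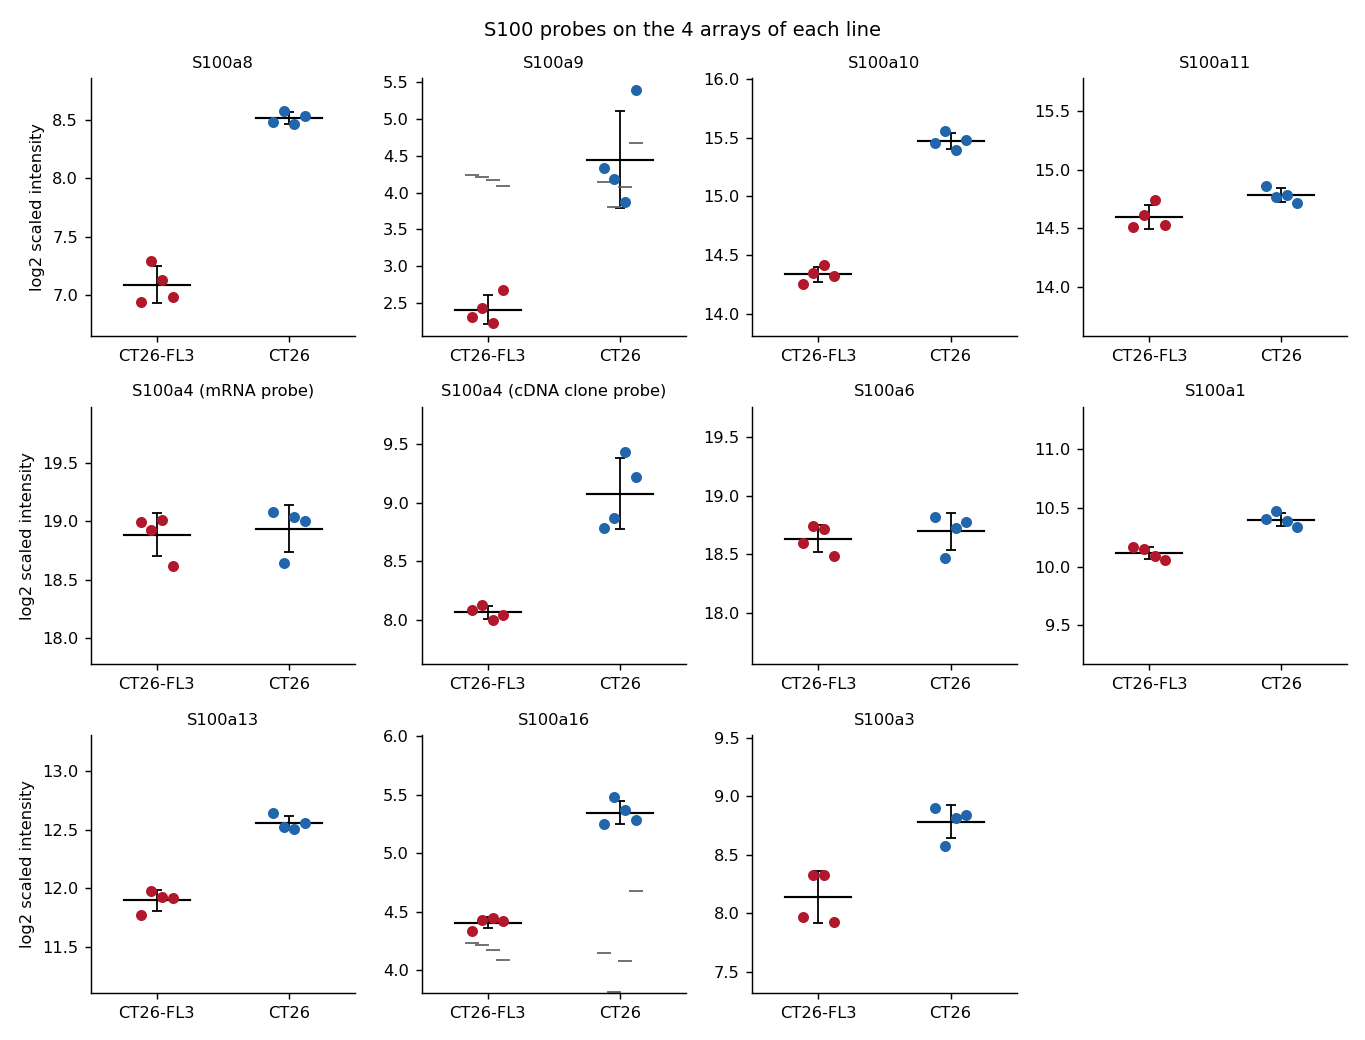
Log2 scaled intensity of the 11 S100 probes on the 4 CT26-FL3 arrays (red) and the 4 CT26 arrays (blue), 1 panel per probe with its own range; the line is the mean, the bar 1 SD, and grey dashes mark each array's detection limit where it falls in range. S100a8, S100a10, S100a13, S100a16, S100a3, S100a1 and the cDNA clone probe of S100a4 have lines that do not overlap, S100a4 (mRNA probe), S100a6 and S100a11 have lines that do, and S100a9 lies below the limit on every CT26-FL3 array.

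S100a8 and S100a9 encode the 2 subunits of calprotectin, the heterodimer that neutrophils and other myeloid cells store in large amounts, and both probes read lower values in CT26-FL3, where S100a9 was under the detection limit. The windows of 250 bases before their starts are shown because the genes lie next to each other and their proteins work as a pair; they come from RefSeq (GRCm38.p6), are written 5′ to 3′ on the strand of the gene, and capitals mark a TATA box (TATAAA) in S100a8 and a C/EBP match (TTGCNNAA) in S100a9. The S100a8 window is chr3:90668821-90669070 on the plus strand and the S100a9 window is chr3:90695722-90695971 on the minus strand.
S100a8: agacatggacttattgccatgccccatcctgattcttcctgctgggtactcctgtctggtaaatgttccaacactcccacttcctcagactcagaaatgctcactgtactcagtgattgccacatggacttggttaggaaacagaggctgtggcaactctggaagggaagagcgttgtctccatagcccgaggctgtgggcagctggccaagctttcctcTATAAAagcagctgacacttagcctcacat
S100a9: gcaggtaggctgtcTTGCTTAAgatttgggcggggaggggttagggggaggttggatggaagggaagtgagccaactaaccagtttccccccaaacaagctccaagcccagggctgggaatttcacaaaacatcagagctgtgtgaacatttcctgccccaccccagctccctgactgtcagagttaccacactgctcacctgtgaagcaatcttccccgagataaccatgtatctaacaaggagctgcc
Counted from the gene start, the TATA box of S100a8 begins at base -30, a place usual for such a box, and the C/EBP match of S100a9 at base -236. A GC box in the S100a9 window is left in lower case. C/EBP factors bind promoters of myeloid genes.

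The S100a8 probe (A_51_P256827) read 123.2, 157, 140.0 and 127 scaled intensity units on the CT26-FL3 arrays, against 358, 381, 354 and 369.5 on the CT26 arrays. Every CT26-FL3 array lay far below every CT26 array. S100a8 fell by 1.42 on the log2 scale (SE 0.08, n = 4 per line, limma adjusted p = 1.88e-06), which put CT26-FL3 at 37.3% of the CT26 level, the largest fall among the 9 genes tested.

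The S100a9 probe (A_51_P402943) read 4.95, 5.38, 4.68 and 6.42 units in CT26-FL3, against 20.3, 18.1, 14.7 and 42.0 in CT26. It stayed under the limit on all 4 CT26-FL3 arrays and passed it on 3 of the 4 CT26 arrays, so it gave a bound only. With each CT26-FL3 array counted at the lowest signal found above the limit (a mean of 18.1 units), CT26-FL3 was at least 1.21-fold lower. That bound rests on CT26 replicate 4: without it the CT26 mean on the log scale was 17.5 units, below the CT26-FL3 floor, and no bound remained. No exact difference is given for S100a9, since all its CT26-FL3 values were under the limit. Whether the pair changed by equal amounts could therefore not be tested.

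Markers of neutrophils, which store calprotectin, were read beside these results, and their part in them was not tested. Lcn2, an iron-carrier binding protein of neutrophil granules and epithelia, was at least 1.65-fold higher in CT26-FL3, Mpo (myeloperoxidase) rose by 0.89 on the log2 scale (SE 0.08) and Mmp9 (gelatinase B) by 0.86 (SE 0.08). Of 14 neutrophil markers on the array, 5 were tested, 3 rose, 0 fell in limma (1 at an unadjusted p under 0.05) and 2 did not pass, and 8 stayed under the limit on all 8 arrays, among them the granule genes Ltf, Camp, Ngp and Mmp8 and the receptor genes Csf3r and Cxcr2. Their summed level ran from 343 to 389 units in CT26-FL3 and from 215 to 272 units in CT26. Mpo was the largest part of that sum, with 179 to 225 units in CT26-FL3 and 101 to 118 units in CT26. Over all genes tested, 23.8% rose and 25.0% fell. Ptprc, the pan-leukocyte surface gene that encodes CD45, stayed under the limit throughout.

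S100a10 encodes p11, the S100 subunit that does not bind calcium and that holds annexin A2 at the plasma membrane, where the complex binds plasminogen. Its probe (A_51_P342871) read 19565, 20777, 21845 and 20459.5 units in CT26-FL3, against 44852, 48329, 43173 and 45852 in CT26. Both lines were tight and far apart. S100a10 fell by 1.14 (SE 0.05, adjusted p = 7.86e-07), so that CT26-FL3 held 45.4% of the CT26 level.

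Anxa2, its partner, also fell. Anxa2 read 49885, 50400, 51498 and 47589 units in CT26-FL3, against 67376, 66181, 67302 and 73543 in CT26, a fall of 0.46 (SE 0.05, adjusted p = 0.000126), and its other 2 probes fell by 0.39 and 0.81. The S100a10 difference minus the Anxa2 difference was -0.68 on the log2 scale. By an exact two-sided permutation test over the 8 arrays this gave p = 0.0286, the smallest that 4 against 4 arrays allow. Adjusted over the 4 partner pairs tested it was 0.0571, which does not pass. With this adjustment no pair could pass by its own values alone, so the miss does not show an equal change. Centred on its mean, the per-array difference ran from -0.42 to -0.29 in CT26-FL3 and from 0.25 to 0.48 in CT26.

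S100a11 encodes an annexin A1 partner found at membranes and in the nucleus. The S100a11 probe (A_51_P155643) read 23344, 25063, 27321 and 23693 units in CT26-FL3, against 29833, 27835, 28267 and 26944 in CT26. The highest CT26-FL3 array lay above the lowest CT26 array, so the lines overlapped. The fall of 0.18 (SE 0.06) passed with an adjusted p of 0.038 and lost its call under 15 of 25 alternative treatments of the data, where the adjusted p reached 0.435. It had an adjusted p of 0.105 within replicates 1 and 2 of both lines and 0.435 within replicates 3 and 4. The probe LOC670046, which the array describes as a predicted mRNA similar to S100a11 and which may read the same transcripts, differed by -0.19 (adjusted p = 0.0565).

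Anxa1, a regulator of inflammation that binds phospholipid, fell by 0.86 (SE 0.07, adjusted p = 1.41e-05), with 43811 to 49342 units in CT26-FL3 and 74522 to 87169 units in CT26. The S100a11 difference minus the Anxa1 difference was 0.67, with an exact permutation p of 0.0286. After adjustment over the 4 pairs it was 0.0571, which this pair could not have passed by its own values alone either. Centred on its mean, the per-array difference ran from 0.30 to 0.38 in CT26-FL3 and from -0.46 to -0.17 in CT26.

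Among the 8 annexins known as S100 partners, 1 rose, 6 fell and 1 did not pass, with a median difference of -0.34 against -0.01 over all genes. The shares over all genes were 23.8% higher and 25.0% lower. Anxa6, which binds membranes and S100 proteins, had the largest fall, by 1.50 (SE 0.07), with 190 to 201 units in CT26-FL3 and 493 to 598 units in CT26. Anxa3 fell by 0.52 (SE 0.06). Anxa7 rose by 0.41 (SE 0.06). Anxa5, a common label for phosphatidylserine, differed by 0.11 (adjusted p = 0.156).

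S100a4 encodes metastasin, which binds non-muscle myosin IIA and is best known for its link with cell motility and metastasis, and its 2 probes disagreed. The window before the S100a4 start, chr3:90603520-90603769 on the plus strand of GRCm38.p6, is shown because S100a4 did not pass by its main probe and, like S100a8, has a TATA box (capitals), which begins at base -31.
S100a4: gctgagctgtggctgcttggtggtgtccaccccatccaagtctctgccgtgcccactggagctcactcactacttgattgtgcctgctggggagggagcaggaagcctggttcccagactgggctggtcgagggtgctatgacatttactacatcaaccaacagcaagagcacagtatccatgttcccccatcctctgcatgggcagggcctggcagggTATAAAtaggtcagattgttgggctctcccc
The probe that matches the S100a4 reference mRNA (A_51_P105078) read 521832, 498100, 526635 and 401193 units in CT26-FL3, against 553496, 408269, 536478 and 524016 in CT26. The lines overlapped almost fully, and the difference was -0.05 (SE 0.12, adjusted p = 0.749), with a 95% interval from -0.33 to 0.22.

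The other S100a4 probe (A_52_P45937) was made to a cDNA clone that the platform annotation assigns to S100a4. It read 271, 280, 256 and 264 units in CT26-FL3, against 441, 466, 693 and 597 in CT26. The lines did not overlap, and it fell by 1.01 (SE 0.14, adjusted p = 0.000345). Which S100a4 transcripts it reads was not tested, so the fall is given as that of the clone probe and not of the gene.

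S100a6 encodes calcyclin, which is common in proliferating cells and fibroblasts and binds the calcyclin-binding protein Cacybp. Its probe (A_51_P281089) read 396642, 437380, 429481 and 366500 units in CT26-FL3, against 460867, 361668, 432120 and 448249 in CT26. The lines overlapped, and the difference of -0.06 (SE 0.09) did not pass (adjusted p = 0.616). Its 95% interval ran from -0.27 to 0.15.

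The S100a4 mRNA probe and the S100a6 probe were the 4th and the 9th of the 41174 probes by signal, at 73.7 and 61.9% of the highest intensity on an array. Among the 50 brightest probes, 7 passed the threshold, where 48.3% of all probes did, and the largest difference in size was 0.45. The part of the signal range in these 2 results was not tested. CT26-FL3 replicate 4 and CT26 replicate 2 were the lowest arrays of their lines for both probes.

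The main partners of both proteins were read as well. Myh9, the heavy chain of non-muscle myosin IIA, fell by 0.24 (SE 0.05, adjusted p = 0.00652), and Cacybp differed by -0.05 (SE 0.06, adjusted p = 0.502). S100a4 and Myh9 changed by amounts that differed by 0.19 (exact permutation p = 0.257, adjusted 0.343), and S100a6 and Cacybp by -0.01 (exact permutation p = 0.943).

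S100a13 and S100a1 start close together on opposite strands, and both fell. S100a13 helps to export fibroblast growth factor 1 by a route without a signal peptide, and S100a1 is a regulator of calcium release channels and pumps best known from heart muscle. The stretch that lies before both starts, chr3:90514331-90514434 of GRCm38.p6 (104 bases, given on the plus strand), is shown since it serves as the upstream sequence of both genes.
S100a13 and S100a1: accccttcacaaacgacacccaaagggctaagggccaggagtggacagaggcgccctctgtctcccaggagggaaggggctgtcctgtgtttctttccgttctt
No motif of those searched was found in the windows of either gene.

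The S100a13 probe (A_51_P269852) read 3494, 4024, 3884 and 3856 units in CT26-FL3, against 6379, 5882, 5821 and 6026 in CT26. The lines lay well apart, and S100a13 fell by 0.66 (SE 0.06, adjusted p = 2.98e-05) to 63.2% of the CT26 level. Fgf1, its export cargo, was dim and fell by 0.77 (SE 0.22, adjusted p = 0.0178), with 11.3 to 20.5 units in CT26-FL3, above the limit on 2 arrays, and 22.5 to 33.8 units in CT26. With a normexp background correction and an offset of 50, Fgf1 differed by -0.16 and lost its call (adjusted p = 0.1845).

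The S100a1 probe (A_51_P172475) read 1146, 1136, 1088 and 1062 units in CT26-FL3, against 1356, 1422, 1338 and 1297 in CT26. The lines did not overlap, and S100a1 fell by 0.29 (SE 0.05, adjusted p = 0.00144).

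S100a16, a broadly expressed member, and S100a3, best known from the hair cuticle, were dimmer in CT26-FL3. The S100a16 probe (A_51_P134533) read 20.2, 21.5, 21.8 and 21.4 units in CT26-FL3, against 38.0, 44.5, 41.4 and 39.0 in CT26. All 8 values lay above the limit but near it, and S100a16 fell by 0.94 (SE 0.06, adjusted p = 4.53e-06). With a constant of 50 added before the logarithm, which draws dim values together, the difference was -0.30.

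The S100a3 probe (A_51_P468456) read 251, 322, 322 and 242 units in CT26-FL3, against 477, 382, 450.0 and 459 in CT26. The CT26-FL3 arrays formed a higher pair (replicates 2 and 3) and a lower pair (replicates 1 and 4), all below the lowest CT26 array. S100a3 fell by 0.64 (SE 0.12, adjusted p = 0.00193).

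**Figure D2:**
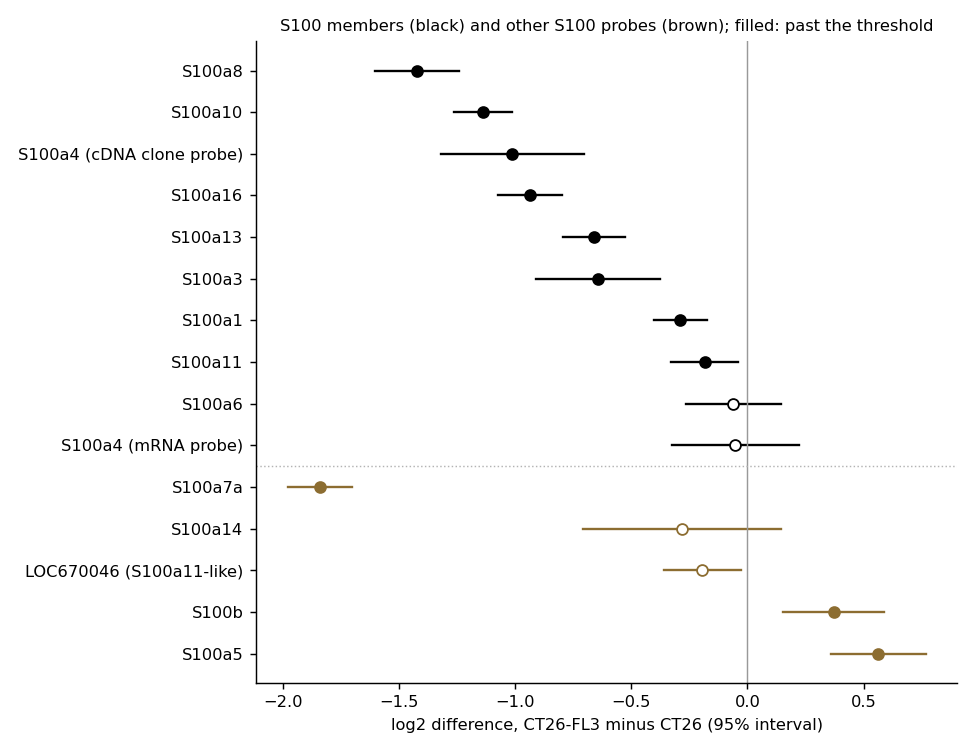
Log2 difference, CT26-FL3 minus CT26, with its 95% interval for the 10 tested probes of the 10 S100 genes followed here (black). Brown points are tested probes of other S100 genes and the probe LOC670046, described as similar to S100a11. Filled points passed the threshold. S100a8 at -1.42 and S100a10 at -1.14 lie farthest left among the black points, S100a6 and the S100a4 mRNA probe reach across 0, and S100a7a (brown) lies at -1.84 while S100b and S100a5 lie right of 0.

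The arrays form 2 sets by a number that their file names share, replicates 1 and 2 of both lines and replicates 3 and 4 of both lines, although no header names a slide. S100a8 differed by -1.41 within replicates 1 and 2 and by -1.44 within replicates 3 and 4. S100a10 differed by -1.21 and -1.07, S100a13 by -0.71 and -0.61, and S100a16 by -0.98 and -0.89, in the same order of sets. The corresponding values were -0.59 and -0.70 for S100a3, -0.28 and -0.29 for S100a1, -0.25 and -0.12 for S100a11, and -0.72 and -1.31 for the clone probe of S100a4. Within replicates 1 and 2, S100a1 and S100a3 missed the threshold with adjusted p of 0.0631 and 0.0617, in a fit of 2 arrays against 2. The S100a4 mRNA probe and S100a6 changed sign between the sets, with 0.10 and 0.03 within replicates 1 and 2 and with -0.21 and -0.15 within replicates 3 and 4.

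Other S100 genes on the array included ones that rose. S100a7a, the mouse relative of psoriasin and koebnerisin, had the largest change among the tested S100 probes: it read 432, 384, 423 and 378 units in CT26-FL3, against 1407, 1427, 1413 and 1538 in CT26. The lines were far apart, and S100a7a fell by 1.84 (SE 0.06, adjusted p = 9.77e-08). S100a5, known from olfactory neurons, read 276, 306, 303 and 240.1 units in CT26-FL3, against 194, 191, 203 and 171 in CT26. It did not overlap either and rose by 0.56 (SE 0.09, adjusted p = 0.000913). S100b, a marker of glia and melanocytes, was dim and rose by 0.37 (SE 0.10, adjusted p = 0.0119), with 62.9 to 77.8 units in CT26-FL3 and 47.4 to 60.9 units in CT26. S100a14 differed by -0.28 (adjusted p = 0.246), above the limit on 1 CT26-FL3 array and 3 CT26 arrays, and S100g and S100a7l2 stayed under it throughout. S100pbp, the gene of an S100P-binding protein and not an S100 gene itself, was counted with them. Its brightest probe differed by 0.11 (adjusted p = 0.140), another fell by 0.46 (SE 0.08, adjusted p = 0.00141) and the last one tested differed by -0.004. The remaining S100pbp probe stayed under the limit throughout. With S100pbp taken by its brightest probe, 5 of these other genes were tested, of which 2 rose, 1 fell and 2 did not pass. Over all genes, 23.8% rose and 25.0% fell.

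By the order of genes in the RefSeq table, the larger block runs over 12 protein-coding genes from S100a1 to S100a9, of which 10 were tested. In that block 1 gene rose (S100a5), 6 fell and 3 did not pass (S100a14, S100a4 and S100a6). The shares over all genes were 23.8% higher and 25.0% lower. Except for S100a7a, the genes that fell are among the 10 S100 genes followed here, so this count is not separate from theirs. S100a7a and S100a8, the largest falls among the tested genes of the block, are neighbours, and S100a5, which rose, lies between S100a4 and S100a6. Among the genes beside the block, Snapin rose by 0.42 (SE 0.05), Ilf2 fell by 0.24 (SE 0.04), and Ints3 and Chtop did not pass, with -0.08 and -0.03. S100a10 fell by 1.14, and S100a11 by 0.18 with lines that overlapped and a call lost under 15 of 25 alternatives. These 2 genes make up the smaller block. Beside it, the fused S100 gene Tchh (trichohyalin, a hair follicle protein) was at least 5.35-fold lower in CT26-FL3, with 7.19, 8.41, 7.51 and 12.02 units in CT26-FL3, all under the limit, and 96.4, 99.8, 89.8 and 101 units in CT26, while Tdpoz1 rose by 0.85 (SE 0.15).

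**Figure D3:**
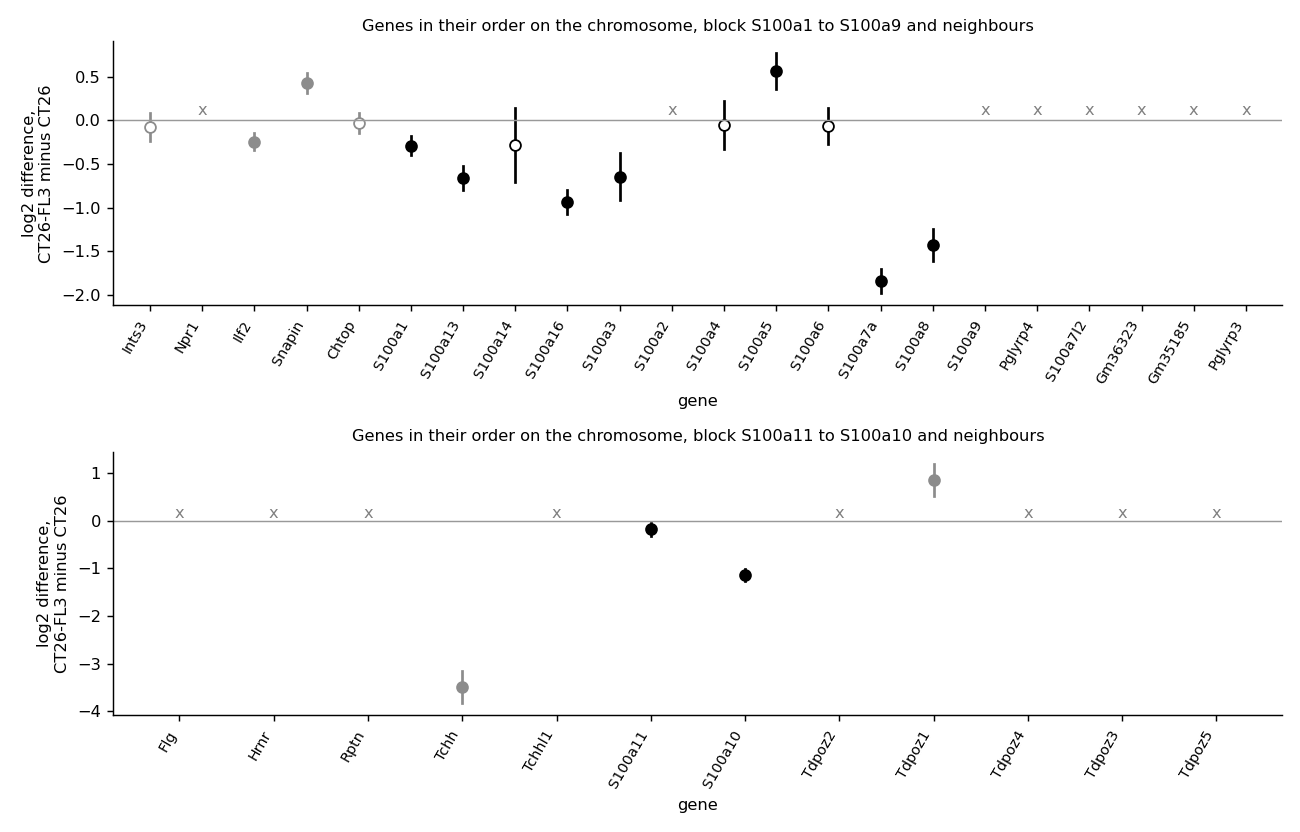
Log2 difference, CT26-FL3 minus CT26, with 95% interval for the genes of both S100 blocks (black) and up to 5 protein-coding genes on either side (grey), in their order along mouse chromosome 3; filled points passed the threshold and x marks a gene that was not tested or has no probe. Falls of different size sit next to genes that did not pass and to S100a5, which rose by 0.56; the point for Tchh is the fitted value of -3.49, and its bound is at least 5.35-fold lower.

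Receptors through which released S100 proteins act were split. Of 13 listed, 10 were tested: 3 rose, 5 fell and 2 missed the threshold, and the median difference was -0.14. Over all genes, 23.8% rose and 25.0% fell. Cd14, the co-receptor that hands ligands to Toll-like receptor 4, read 2743, 3064, 3029 and 3062 units in CT26-FL3, against 8073, 8351, 7861 and 8134 in CT26, and fell by 1.45 (SE 0.05, adjusted p = 1.56e-07). The lines lay far apart. Ly96 (MD-2) fell by 0.45 (SE 0.06) and Tlr4 by 0.24 (SE 0.05), so the 3 genes of that receptor complex, which binds S100A8 and S100A9, all fell. Mcam fell by 0.28 (SE 0.08) with lines that overlapped, and with the normexp offset of 50 it differed by -0.12 and lost its call (adjusted p = 0.181). Egfr, the epidermal growth factor receptor, rose by 2.73 (SE 0.06), with 314 to 329 units in CT26-FL3 and 44.8 to 53.5 units in CT26, and of its other 3 probes 2 rose, by 1.41 and 2.19, while the last differed by 1.47 (adjusted p = 0.0934). The Egfr probe with 2.19 stayed under the limit in CT26, so that value is a fitted one. Alcam rose by 1.00 (SE 0.06) and Bsg (basigin, a receptor for S100A9) by 0.34 (SE 0.07). Ager, which encodes the receptor for advanced glycation end products, stayed under the limit on all 8 arrays, as did Cd36 and Cd33.

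Intracellular targets of S100 proteins went both ways as well. Of 30 listed, 23 were tested: 6 rose, 8 fell and 9 missed the threshold, and the median difference was -0.05. By comparison, 23.8% of all genes rose and 25.0% fell. Kcnk3, the potassium channel TASK-1 that p11 binds, fell by 1.07 (SE 0.06), with 387 to 436 units in CT26-FL3 and 789.7 to 916 units in CT26. Iqgap1, a scaffold of the cell cortex that binds S100 proteins, fell by 0.82 (SE 0.06) and vimentin (Vim) by 0.40 (SE 0.07). Mdm2, the p53 ubiquitin ligase that several S100 proteins bind, rose by 1.10 (SE 0.06), with 4466 to 4866 units in CT26-FL3 and 1984 to 2287 units in CT26. Ppfibp1 (liprin beta-1, an S100A4 target) rose by 0.54 (SE 0.05) and Ryr1, the muscle calcium release channel, by 0.41 (SE 0.10).

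**Figure D4:**
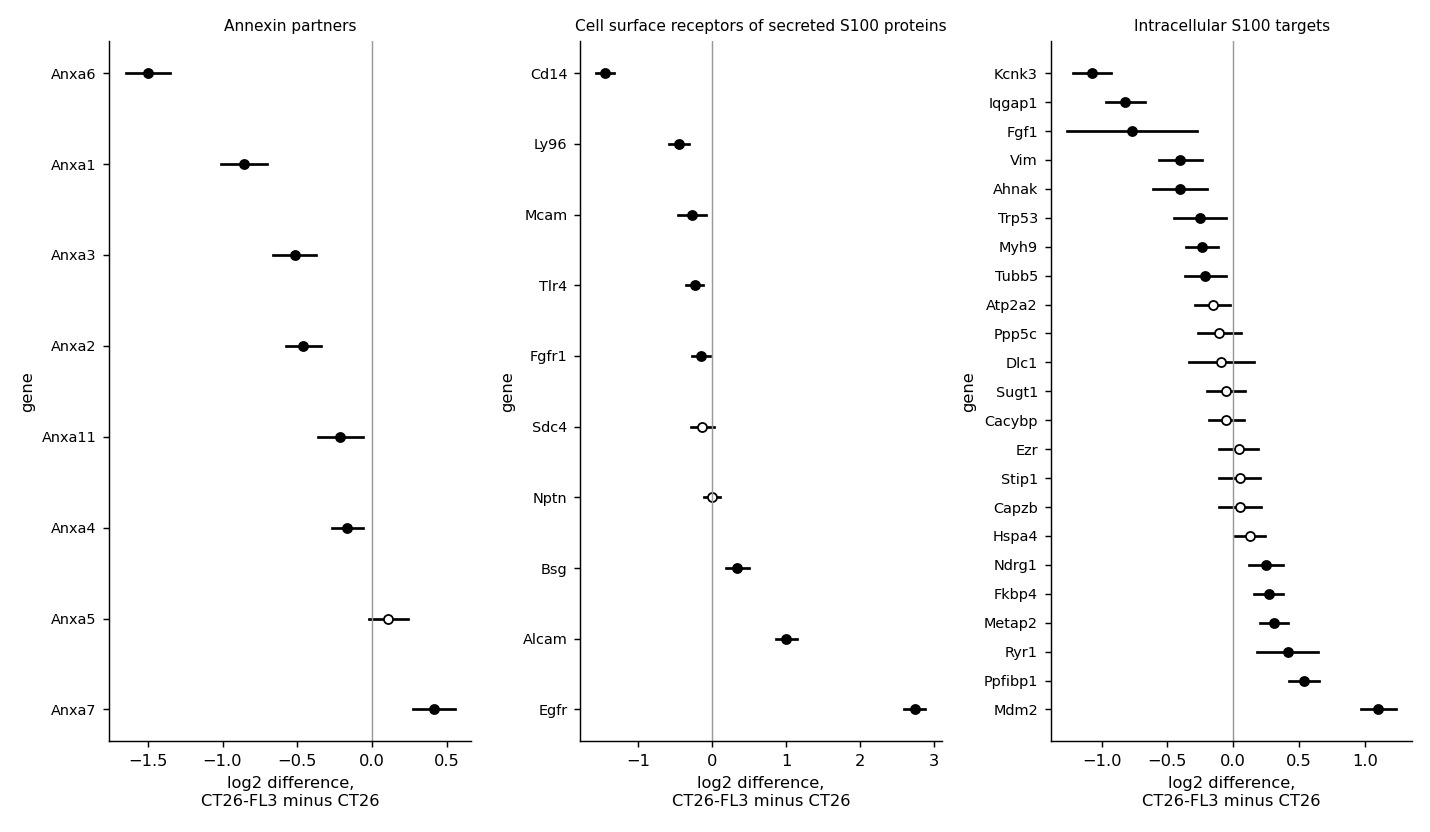
Log2 difference, CT26-FL3 minus CT26, with 95% interval for tested annexin partners (left), cell surface receptors (middle) and intracellular targets (right) of S100 proteins, sorted by difference, each panel with its own range; filled points passed the threshold. In the annexin panel 6 of 8 points are filled left of 0, from Anxa6 at -1.50, while the receptor panel runs from Cd14 at -1.45 to Egfr at 2.73 and the target panel from Kcnk3 at -1.07 to Mdm2 at 1.10.

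Other genes with EF-hands, the motif of the S100 proteins, moved in both directions. Of 50 listed, 40 were tested: 12 rose, 14 fell and 14 missed the threshold, and the median difference was -0.11. Over all genes, 23.8% rose and 25.0% fell. Rcn3, a calcium-binding protein of the secretory pathway, rose by 3.71 (SE 0.07), with 851 to 991 units in CT26-FL3 and 64.3 to 76.7 units in CT26. Gca (grancalcin) rose by 0.90 (SE 0.19), and Pls1 (an actin-bundling plastin) was at least 1.28-fold higher in CT26-FL3. Pls1 was under the limit on all 4 CT26 arrays, and its lines overlapped (limma adjusted p = 0.034 on the values as measured). Plcd1 fell by 0.75 (SE 0.05), Sparc by 0.68 (SE 0.08) and Capn2 by 0.65 (SE 0.05). Of 6 fused S100 genes on the array, Tchh was the 1 tested.

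Transcription factors reported at S100 promoters counted 15 tested of 16, with 3 higher, 3 lower and 9 that did not pass, and a median difference of -0.02. By comparison, 23.8% of all genes rose and 25.0% fell. Cebpa, a myeloid and hepatic factor, fell by 0.87 (SE 0.06), with 342 to 380 units in CT26-FL3 and 614 to 684 units in CT26. Nr3c1, the glucocorticoid receptor, fell by 0.60 (SE 0.05) and Tcf7l2 by 0.57 (SE 0.06). Klf5 rose by 0.81 (SE 0.05), Cebpd by 0.34 (SE 0.05) and Cebpb by 0.19 (SE 0.05). Spi1, the myeloid factor PU.1, stayed under the limit throughout.

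RefSeq windows of 250 bases before the start were matched by symbol for 9 of the 10 S100 genes, 13 windows in all, since S100a3 and S100a16 have several starts. S100a10 has no entry. Motifs were sought on both strands. The TATA box TATAAA was in 3 of the 13 windows (12.4% of 32851 windows of all genes), the CCAAT box CCAAT in 2 (33.8%), the GC box GGGCGG in 4 (32.7%), the C/EBP match TTGCNNAA in 1 (9.6%), the AP-1 site TGANTCA in 2 (6.7%) and the E-box CACGTG in 1 (6.0%). No window held the STAT site TTCNNNGAA (7.0%), the NF-kappaB site (1.2%) or the cAMP response element TGACGTCA (1.5%). Such matches describe letters in a window and show no binding.

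By Euclidean distance over the 8 arrays, after centring, the called genes closest to S100a8 were Mmp3 (stromelysin, distance 0.15 on the log2 scale), Slc16a6 (0.19) and Foxd1 (0.20), out of 6474 candidates. This distance favours genes with a line difference of similar size: Mmp3 fell by 1.48, Slc16a6 by 1.42 and Foxd1 by 1.48. Shared regulation was not tested. Mmp3 averaged 13219 units in CT26-FL3 and 36861 units in CT26. No S100 gene of the 10 rose, so no gene was sought for a rise.

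Markers of cells that could have come along from the liver were counted beside these results, and their part in the S100 differences was not tested. The counts in this paragraph and the next stand beside shares over all genes of 23.8% higher and 25.0% lower. Macrophage and Kupffer cell markers had 8 of 16 tested, 3 higher (Mrc1, Mpeg1 and Cd68), 1 lower and 4 that did not pass, with sums from 1008 to 1080 units in CT26-FL3 and from 779 to 869 units in CT26. Cd68 made up most of these sums, with 597 to 642 units in CT26-FL3 and 435 to 528 units in CT26. Of the 16 macrophage and Kupffer cell markers, 8 stayed under the limit on all 8 arrays, among them Adgre1, Clec4f and Vsig4. Marco and C1qb were above it on all 8 and did not pass. Lyz2, a lysozyme gene of macrophages, was at least 2.03-fold lower in CT26-FL3. Fibroblast and stellate cell markers had 9 of 14 tested, 2 higher (Dcn by 3.32, Fap by 0.93), 6 lower (Col1a1 fell by 0.76, Cygb by 0.74, Col3a1 by 0.56) and 1 that did not pass (Col1a2), with sums from 224711 to 243266 units in CT26-FL3 and from 221011 to 258398 units in CT26. Col1a2 made up most of these sums, with 174727 to 193131 units in CT26-FL3 and 167227 to 204848 units in CT26, so they say little about the other markers. Hepatocyte markers had 2 tested, of which Apoa1 rose by 0.24 and 1 did not pass, with sums from 124.5 to 145 units in CT26-FL3 and from 107 to 150.3 units in CT26; Alb stayed under the limit on all 8 arrays.

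Endothelial markers had 4 of 10 tested, with Tie1 at least 1.64-fold higher, Plvap higher by 0.29 and 2 that did not pass. Their sums ran from 586 to 644 units in CT26-FL3 and from 488 to 529 units in CT26. Plvap made up most of these sums, with 399.5 to 459 units in CT26-FL3 and 313 to 368 units in CT26. Of these markers, 5 stayed under the limit throughout, among them Pecam1 and Cdh5. Vwf and Stab2, which did not pass the threshold, were above the limit on all 4 arrays of each line. Of T, NK and B cell markers, 3 of 11 on the array were tested and 0 passed in limma (also 0 at an unadjusted p under 0.05), with sums from 179 to 235 units in CT26-FL3 and from 175 to 232 units in CT26. Markers of keratinised epithelium, where several S100 genes are abundant, had 7 of 10 tested, 1 higher (Krt14 by 0.33, with lines that overlapped), 2 lower and 4 that did not pass, with sums from 1785 to 1909 units in CT26-FL3 and from 2397 to 2551.5 units in CT26. Krt10 fell by 0.46 (SE 0.04). Trp63 read 5.72, 4.63, 42.5 and 7.60 units in CT26-FL3, against 40.3, 38.8, 42.2 and 49.0 in CT26, so that replicate 3 of CT26-FL3 lay among the CT26 arrays and the other 3 CT26-FL3 arrays were under the limit. With those 3 counted at the lowest signal above the limit, Trp63 was at least 1.89-fold lower in CT26-FL3 (limma adjusted p = 0.0191 on the values as measured), and at least 2.35-fold lower without replicate 3. Colon epithelium markers had 6 of 14 tested, 5 higher (Krt8 by 2.23, Krt18 by 1.56 and Cdx2 by 1.07 the most) and 1 that did not pass, with sums from 3403 to 3647 units in CT26-FL3 and from 1687.5 to 1777 units in CT26.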

How the data were processed

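Total RNA of 4 CT26-FL3 and 4 CT26 samples was hybridised to 1-colour Agilent arrays; the sample names of the labels gave the groups, and the number of arrays limits the precision. For every array the authors deposited spot intensities, which are already background-subtracted as their values show, beside a local background and its spread. The tool named by the submitters' processing notes is Agilent Feature Extraction, without a version. They also deposited a table of log2 values, centred per probe, whose exact normalization is unknown; its columns correlated at r from 0.985 to 0.998 with the centred array values over 20852 probes, which settled its direction, and with a slope of 0.952 to 1.00 per array, near the 1 that base 2 gives. Its column medians were -0.01, 0.00, -0.01 and 0.02 for CT26 replicates 1 to 4 and 0.00, 0.00, 0.02 and 0.00 for CT26-FL3 replicates 1 to 4.

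The planned processed signal, background flag and outlier flag were replaced by the deposited intensity, by a limit of 2.6 times the SD (median over 153 negative controls), and by the mark for failed spots (3 to 76 gene spots per array left out). Control spots (1639 of 45018) were left out. Log2 intensities were averaged per probe and set relative to the 75th percentile of their array. A scaled intensity unit is the intensity with each array brought to the mean of these percentiles. Probes above the limit on at least 4 of 8 arrays (23068) were fitted with limma 3.58.1 in R 4.3.3 (lmFit, eBayes, two-sided, Benjamini-Hochberg over all of them, threshold 0.05, no block). A gene in a list is its brightest kept probe (15097 genes). The fit was tested on simulated data. A probe above the limit in 1 line only has a bound: the mean of the bright line over that of the dim line, in which each array counts as its own value or the lowest signal above the limit, whichever is higher. Symbols come from the platform annotation, 32524 of them brought up to date by gene identifier with RefSeq (GRCm38.p6); the files name no build.

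The S100 genes, the 7 lists of related genes and the 8 marker lists were chosen with earlier results of these data known. Named genes are each S100 probe, up to 3 genes per list and direction (largest change past the threshold) and some genes fixed by name. Neighbours within 5 genes of the S100 blocks and the 3 genes closest to S100a8 were named too. S100a8 had the largest fall among the 9 tested of the chosen S100 genes. Other named genes were chosen after their values were seen. Alternatives were other background corrections, scalings, filters, probe summaries, blocks, array sets, single arrays left out and the log2 table.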

Additional observations from a re-analysis of the deposited data

Results flagged for a closer look

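Groups of 4 arrays were searched for a value far from the other 3, by Dixon's test at its 95% critical value, in 160 groups of named genes. Chance flags about 1 group in 20, and 7 stood out. S100a7a had 1538 units in CT26 replicate 4, against 1407 to 1427 in the other CT26 arrays. For the S100 partners, Anxa2 had 73540 units in CT26 replicate 4 (others 66180 to 67380), Anxa1 had 74520 units in CT26 replicate 3 (others 86170 to 87170), and Cd14 had 2743 units in CT26-FL3 replicate 1 (others 3029 to 3064). Among markers of other cells, Krt14 had 56.05 units in CT26-FL3 replicate 3 (others 74.07 to 77.66), Apoa1 had 57.14 units in CT26 replicate 4 (others 68.78 to 69.96), and Lyz2 had 40.54 units in CT26 replicate 2 (others 35.05 to 35.91). None of these values put the array among those of the other line except Krt14.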

How the results depend on the processing

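Over 25 alternatives, 5 to 8 S100 probes fell and 0 rose in limma. S100a8, S100a10, S100a13, S100a16 and the clone probe of S100a4 kept their direction and call wherever they could be fitted. The count of all probes called was 5756 within replicates 1 and 2, where 5 S100 probes were lower, and 5728 within replicates 3 and 4, in fits of 2 arrays against 2. With 1 array left out in turn, 7 to 8 S100 probes were lower and the count of all probes called was 10056 to 10696. S100a11 lost its call in 15 alternatives, among them 6 of the 8 single arrays left out (all but CT26-FL3 replicate 3 and CT26 replicate 4), with adjusted p up to 0.435. The S100a4 mRNA probe (A_51_P105078) turned to 0.101 within replicates 1 and 2 and ran from -0.152 to 0.0378 with 1 array left out, positive without CT26-FL3 replicate 4. The mean of both S100a4 probes was -0.53 (adjusted p = 0.00296). S100a6 (A_51_P281089) turned to 0.0289 within replicates 1 and 2. S100pbp turned to -0.117 with the mean of probes, and Chtop to 0.00071 with quantile normalization, 0.0034 with the mean of probes and 0.0606 within replicates 3 and 4; none of these passed. The unequal change of partner pairs: S100a4 and Myh9 turned to -0.294 with the mean of probes (exact permutation, adjusted p = 0.114). The causes were not tested. With a constant of 50 added before the logarithm, differences of dim genes shrank by more than 1.5 times with their calls kept, among them Gca (0.47), Mmp9 (0.39), Mrc1 (0.41), Fap (0.56), Cygb (-0.45), Krt18 (0.96) and S100b (0.24). Among the genes around the S100 set, calls were lost most often for Mcam (11 alternatives), Krt14 (9), Apoa1 (8), Pls1 (8), Fgf1 (6), Cebpb (5) and Trp63 (5).

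The labels do not say that a replicate number marks a shared culture or day, and deviations of arrays with the same sample-name number correlated between the lines at r from -0.03 to 0.17 (mean 0.06). With this replicate block, 4939 probes were higher and 5366 lower, with 7 S100 probes lower. Blocking on the number in the titles gave 4106 higher and 3922 lower, with 7 S100 probes lower, and turned the S100a4 mRNA probe to 0.0847, S100a6 to 0.0296 and Cacybp to 0.0051, none of which passed.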
